A study of Mus musculus with 7 samples.

Results

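The well-expressed long noncoding RNAs (lncRNAs) of the mouse heart were the genes that the deposited table types as lncRNA and whose mean over the 7 hearts was at least 5 CPM, counts scaled to the same column total in every heart. They numbered 110 of the 5597 lncRNA genes in the table, or 1.97% of them, out of 20343 genes in all. Only the mean level over both groups chose them, so their level is a description. By TMM-scaled group means, 2 of the 110, Gm16316 and Gm52877, reached 5 CPM in the transferred hearts alone, and 5, among them Gm38455 and Gm46891, in the control hearts alone, so the choice is not independent of their fold changes. The lncRNAs just above the threshold were Gm13481 at 5.03 CPM, A730017L22Rik at 5.10 CPM and R74862 at 5.16 CPM. Those just below it were Gm38910 at 4.91 CPM, A730020M07Rik at 4.97 CPM and A030001D20Rik, which rounds to the threshold but lay under it.

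RNA had been sequenced from the apical myocardium of NSG-DR1 mice (strain NSG-DRB1*0101), which lack functional lymphocytes of their own and carry a human HLA-DR1 transgene, so that transferred human T cells can persist. The transgene and the immunodeficient background were shared by both groups. Control hearts came from 4 untreated mice, and transferred hearts from 3 mice that had been given human CD4+ T cells 6 weeks earlier. Controls received no other cells, and neither the age of the mice nor a batch was given in the sources used here. The question was what the transferred T cells do to the heart, which the series' title places in the setting of inflammation and ageing.

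A lncRNA is a transcript without a recognised protein product. Some act on neighbouring genes at the site where they are made, some bind proteins or microRNAs, and others are mainly known as the precursors of small RNAs that lie in their introns or exons. Most are made at much lower levels than messenger RNAs, and many are named only by a clone or model number because no role has been described.

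The columns held between 16402194 and 25190580 counts over chromosomes 1 to 7 and the start of chromosome 8, which is not the depth of the libraries. Cardiomyocyte markers summed to between 131038 and 164223 CPM in the 7 hearts, so markers of the labelled tissue were abundant in each. Markers of immune cells differed between the groups: 13 macrophage and monocyte markers summed to 588 to 870 CPM in control and 1008 to 1501 CPM in transferred hearts. Neutrophil markers summed to 13.1 to 39.0 CPM in control hearts and to 22.1, 310 and 52.9 CPM in transferred hearts 1, 2 and 3. Interferon response genes summed to 333 to 439 CPM in control hearts and to 2428, 796 and 442 CPM in transferred hearts 1, 2 and 3. Only 3 of 10 mouse T cell markers passed the filter on low counts, and Trbc1 and Trbc2, genes of the T cell receptor, were listed at 0 in all 7 hearts. Endothelial markers summed to 4800 to 5697 CPM in control and 4471 to 5444 CPM in transferred hearts; 8 of 12 were above 0, and Aqp1 and Aplnr fell (-1.01 and -0.91). Adipocyte markers summed to 900.4 to 1205 CPM and 858 to 1010 CPM. Of 4 tested, 1 was above 0 and 3 below, and Thrsp fell most (-1.12). The edgeR adjusted p of Aqp1, Aplnr and Thrsp was 0.0384, where 0.235% of all tested genes passed. Each lost the call with limma-voom (0.0698) and without transferred heart 2 (0.101 to 0.137), among other settings. The part of these cells in the lncRNA values was not tested. In bulk tissue, fewer cells of a type and less RNA per cell cannot be told apart.

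The 110 lncRNAs held 78.9% to 82.4% of all lncRNA counts in a heart, whereas 3008 lncRNA genes had no count in any heart. Their summed share of all counts was 0.384%, 0.379%, 0.404% and 0.345% in control hearts 1 to 4. In transferred hearts 1 to 3 it was 0.338%, 0.369% and 0.385%. The groups overlapped, with means of 0.378% ± 0.0245 (SD, n = 4) and 0.364% ± 0.0235 (SD, n = 3). The 10 most abundant lncRNAs took 58.4% to 62.6% of the counts on the 110. By symbol, 51 were numbered gene models (Gm), 35 were cDNA clone names (Rik), 2 were locus numbers and 22 had other names. Chromosome 2 carried 30 of them, and the fewest counts that any of the 110 had in a heart was 28.

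Per length of exon, the order of levels differed from the order by counts. C130080G10Rik, whose role is not known and whose gene lies 1520 bases from the cardiac actin gene Actc1 on the opposite strand, was first on both scales, at 574 CPM and 301 CPM per kilobase. Norad followed at 552 CPM, but was only the sixth per length, at 112 CPM per kilobase. The short transcripts Gm15543 and Bc1 came next per length, at 282 and 259 CPM per kilobase, then Oip5os1 at 140 and Gm5532 at 137 CPM per kilobase. Snhg14, the eighth by counts at 71.0 CPM, spread over 24206 exon bases and reached only 2.93 CPM per kilobase. Its count was close to that of Snrpn (70.0 CPM), a protein-coding gene that overlaps it on the same strand. The median over the 110 was 4.92 CPM per kilobase, against 13.8 CPM per kilobase for the 5164 tested protein-coding genes with a mean of at least 5 CPM.

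**Figure D1:**
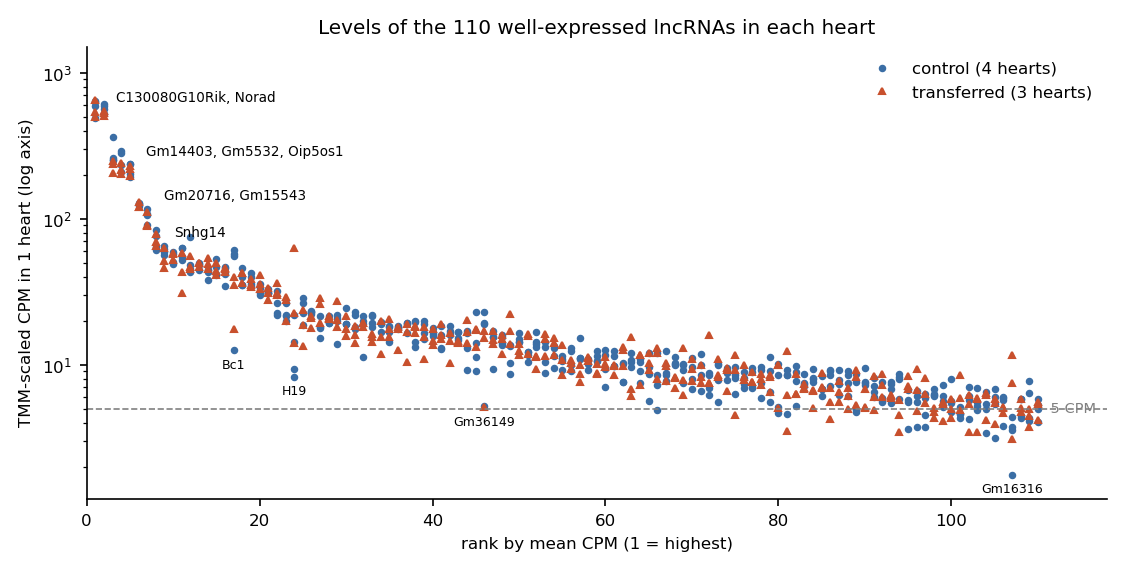
TMM-scaled CPM of each of the 110 lncRNAs in each heart (log axis) against their rank by mean CPM; circles are the 4 control hearts and triangles the 3 transferred hearts. Levels fall from 574 CPM to the threshold of 5 CPM (dashed line), and Bc1, H19, Gm36149 and Gm16316 have 1 or 2 hearts far from the rest.

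Both groups of points lay on top of each other for most of the lncRNAs. No lncRNA of the 110 passed an adjusted p of 0.05 in edgeR's quasi-likelihood test, in which 0.235% of the 7667 tested genes passed, and the lowest adjusted p was 0.195 (Gm38830). In DESeq2 0 of the 110 passed as well, where 3.29% of the tested genes did. At an unadjusted p under 0.05 edgeR gave 7 lncRNAs higher in transferred hearts (6.36%, against 7.17% of all tested genes) and 10 lower (9.09%, against 5.27%). Of the 110, 47 had a log2 fold change above 0 and 63 below 0. The median was -0.03, and the median over all tested genes was -0.002. Without single hearts the median ran from -0.09 without control heart 4 (40 above 0, 70 below) to 0.03 without transferred heart 1 (58 above, 52 below). It was -0.08 without transferred heart 3 (40 above, 70 below), and it was also above 0 without the 2 hearts whose source names begin with a letter, control heart 1 and transferred heart 1 (57 above, 53 below, median 0.02). P-values here measure only the spread between these hearts.

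The counts at an unadjusted p depended on single hearts. Without control heart 4, 1 lncRNA was higher at p under 0.05, where 6.26% of all tested genes were, and without transferred heart 2 it was again 1, against 5.16%. Without transferred heart 3 there were 2 (8.28% of all tested genes), and without control heart 2 there were 4 (5.16%). Without control heart 1, 6 were lower (4.90%). With total count scaling 3 were higher and 10 lower (7.37% and 4.51% of all tested genes).

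The values of individual hearts were then compared without a model. In 3 lncRNAs every transferred heart lay above every control heart (2.73%, against 5.99% of all tested genes), and in 14 every transferred heart lay below every control heart (12.7%, against 5.22%). Of the 81 lncRNAs between 5 and 20 CPM, 12 were lower without overlap (14.8%), and 2 were higher (2.47%). Among 1131 tested protein-coding genes of the same levels the shares were 4.60% lower and 9.64% higher. Without transferred heart 1 the counts were 14 higher and 17 lower, where 11.98% and 11.90% of all tested genes separated in each direction. Leaving out control heart 3 gave 7 higher and 15 lower, where 9.31% and 9.30% of all tested genes separated. Leaving out control heart 2 gave 5 higher and 15 lower, against 6.99% and 6.57%. The difference between lncRNAs and other genes was not tested.

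**Figure D2:**
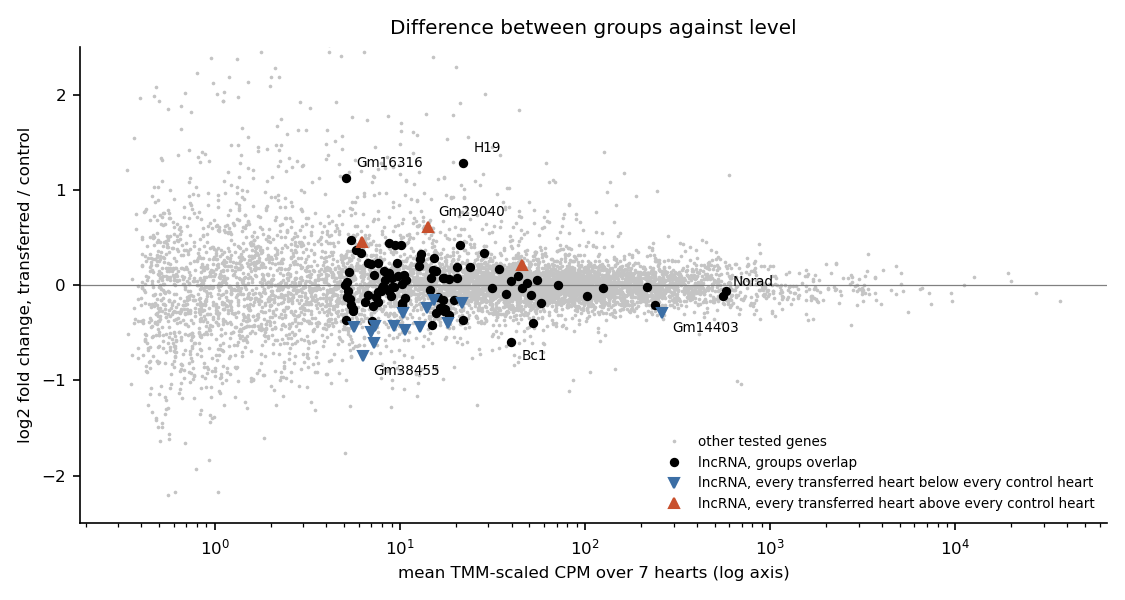
Log2 fold change (transferred / control, edgeR) against mean TMM-scaled CPM over the 7 hearts (log axis), with other tested genes in grey and the 110 lncRNAs in black or colour; 23 genes lie beyond the axis limits of 2.5. The lncRNAs whose groups do not overlap are 14 below 0 and 3 above 0, and H19 and Gm16316, the furthest from 0, have overlapping groups.

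Among the lncRNAs with lower values, the separations were small and ran from -0.75 to -0.16 on the log2 scale. Gm38455, which overlaps the DNA repair gene Shld1 on the other strand (chr2:132693704-132698684), had the lowest log2 fold change. Its values were 8.22, 8.005, 5.83 and 8.58 CPM in control hearts 1 to 4 and 4.51, 3.43 and 5.73 CPM in transferred hearts 1 to 3. Control heart 3 and transferred heart 3 almost met, and the log2 fold change was -0.75 ± 0.221 (SE), a fold of 0.596 (edgeR adjusted p = 0.202). 9330102E08Rik, more than 10 kb from any protein-coding gene, gave 9.24, 8.52, 7.14 and 9.09 CPM in control and 5.57, 4.23 and 6.87 CPM in transferred hearts. Its log2 fold change was -0.61 ± 0.196 (edgeR adjusted p = 0.243), and again heart 3 of each group came closest to the other group.

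Gm38830, which had the smallest p of the 110, lies 5961 bases from Chmp3, a gene of the membrane-scission machinery, on the same strand. It measured 21.5, 18.1, 21.7 and 19.4 CPM in control hearts and 15.4, 14.2 and 16.3 CPM in transferred hearts, with no overlap. The log2 fold change was -0.40 ± 0.116 (edgeR adjusted p = 0.195, unadjusted p = 0.00636), and Chmp3 itself stood at 0.06. In 3 of the 7 hearts Gm38830 had a fractional count, and how reads were divided to give such counts is not given in the sources used here. B330016D10Rik, 7517 bases from the transcriptional corepressor gene Spen, had only whole counts. It gave 11.3, 9.98, 10.1 and 10.3 CPM in control hearts and 8.26, 6.96 and 8.05 CPM in transferred hearts. Its log2 fold change was -0.43 ± 0.137 (edgeR adjusted p = 0.243), beside -0.06 for Spen.

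Another 3 of the lower lncRNAs overlap protein-coding genes on the other strand and had whole counts. 4930445K14Rik, opposite the mRNA cap methyltransferase gene Pcif1, had 13.3, 16.7, 14.2 and 13.8 CPM in control and 9.27, 11.3 and 11.4 CPM in transferred hearts (log2 fold change -0.44). Gm46891, opposite the ubiquitin ligase adaptor gene Dcaf12, had 6.76, 6.20, 6.14 and 6.31 CPM against 4.71, 5.08 and 4.30 CPM (-0.43). C530005A16Rik, opposite Gpbp1l1 and Ccdc17, had 9.39, 8.13, 7.60 and 7.95 CPM against 6.58, 5.08 and 6.72 CPM (-0.43). In none of the 3 did the groups overlap, and the edgeR adjusted p was 0.231, 0.301 and 0.324. How strand was treated in counting is not given in the sources used here, so reads of a lncRNA and of a gene overlapping it cannot be told apart.

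Gm14403 was the most abundant of the 14, at 260 CPM, and its counts were fractional in 5 hearts. It had 365, 251, 251 and 261 CPM in control hearts and 237, 206 and 249 CPM in transferred hearts. Control heart 1 stood above all others, the remaining control hearts were barely above transferred heart 3, and the log2 fold change went from -0.29 to -0.14 without control heart 1. The other lower lncRNAs were 4921531C22Rik, 2810414N06Rik, 4632404H12Rik, 2610306M01Rik, Gm42274 and A930005H10Rik. The smallest difference was in A930005H10Rik, with 16.8, 14.8, 16.8 and 15.3 CPM in control hearts against a narrow 14.5, 14.3 and 14.2 CPM in transferred hearts (log2 fold change -0.16). Of the 14, 10 had whole counts in every heart and 9 had an unadjusted p under 0.05.

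The 3 lncRNAs with higher values without overlap were Gm29040, Gm12519 and Gm9899. Gm29040 (chr1:43248158-43261118), 49814 bases from the LIM-domain gene Fhl2, had 10.3, 13.6, 13.5 and 8.58 CPM in control hearts. It had 17.02, 22.2 and 13.8 CPM in transferred hearts, so transferred heart 3 stood just above control heart 2. The log2 fold change was 0.62 ± 0.206 (edgeR adjusted p = 0.267), and that of Fhl2 was 0.10. Gm12519, 434065 bases from the transcription factor gene Klf4, had 5.69, 6.71, 5.57 and 3.60 CPM against 8.36, 6.82 and 7.11 CPM (log2 fold change 0.46). Gm9899, opposite the potassium channel gene Kcnk3, had 43.3, 44.6, 44.3 and 38.1 CPM against 45.2, 49.2 and 54.1 CPM (0.22, edgeR adjusted p = 0.397), while Kcnk3 stood at -0.09.

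**Figure D3:**
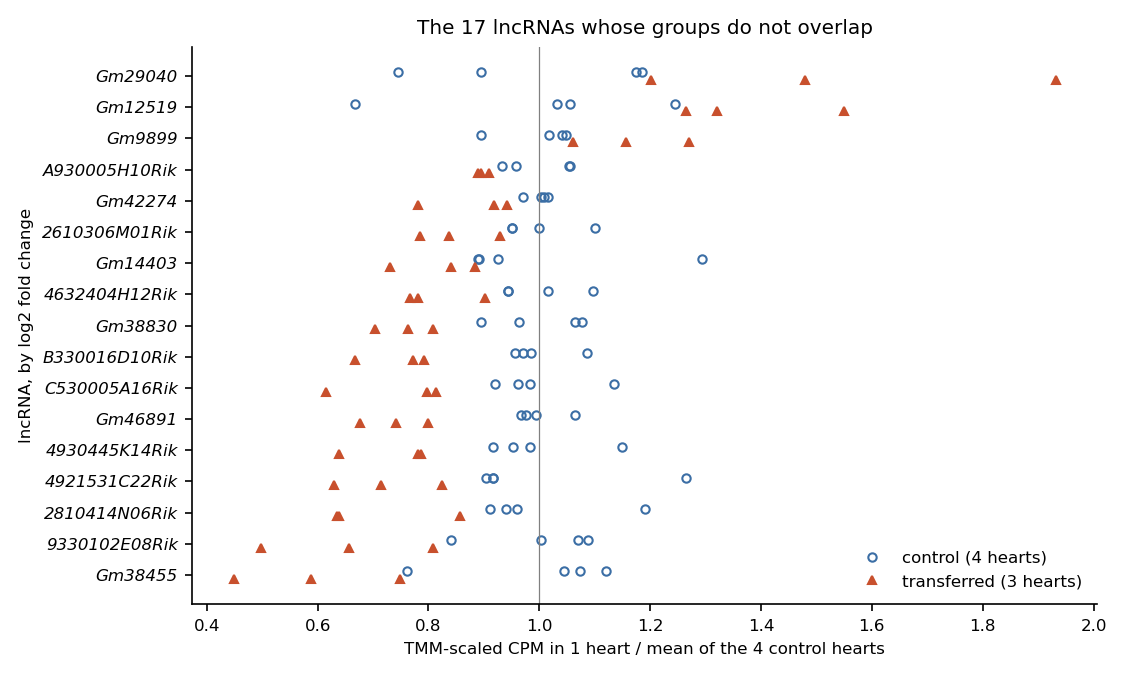
TMM-scaled CPM in each heart divided by the mean of the 4 control hearts, for the 17 lncRNAs whose groups do not overlap; open circles are control hearts and triangles transferred hearts. Triangles lie left of every circle in the rows of the 14 lower lncRNAs, and in Gm38455, Gm14403 and Gm9899 the nearest hearts of the groups almost touch.

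The largest log2 fold changes belonged to lncRNAs whose groups overlapped. H19 (chr7:142575530-142578146) is the imprinted RNA made from the maternal chromosome next to Igf2; it is abundant before birth and falls in most tissues afterwards. It is also the precursor of the microRNA miR-675, which lies in its first exon. Both mature miR-675 sequences are shown with the seed, bases 2 to 8, in capitals, because the table holds a separate row for this microRNA gene inside H19 (RefSeq, GRCm38.p6, chr7:142577112-142577133 and chr7:142577078-142577099, minus strand).
mmu-miR-675-5p: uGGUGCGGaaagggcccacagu
mmu-miR-675-3p: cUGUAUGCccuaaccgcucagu

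H19 had 9.39, 14.4, 21.8 and 8.27 CPM in control hearts 1 to 4 and 22.4, 62.7 and 14.03 CPM in transferred hearts 1 to 3. Only transferred heart 2 was far above the controls, and transferred heart 3 was below control hearts 2 and 3. The means were 13.4 ± 6.15 (SD, n = 4) and 33.04 ± 26.0 CPM (SD, n = 3). The log2 fold change was 1.29 ± 0.565 (edgeR adjusted p = 0.4218), and permuting the group labels exactly (two-sided, 35 arrangements) gave p = 0.143. Without transferred heart 2, which also had the highest sum of neutrophil markers, it was 0.43. The Mir675 row followed the same order at the top, with 0.778, 0.689, 1.11 and 0.694 CPM in control and 1.37, 4.14 and 0.889 CPM in transferred hearts. Its reads come from polyadenylated RNA and cannot be told apart from those of H19, so they are no measure of the mature microRNA.

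Mrpl23, the nearest tested protein-coding gene and one of the mitochondrial ribosome, had 114 to 121 CPM in control and 132 to 139 CPM in transferred hearts (log2 fold change 0.18, edgeR adjusted p = 0.301). Igf2, the fetal growth factor gene of the same imprinted cluster, stood at 58.5 ± 6.62 CPM (SD, n = 4) in control and 57.3 ± 13.8 CPM (SD, n = 3) in transferred hearts, and its log2 fold change was -0.03. Of 15 tested protein-coding genes in a list of the chromosome 7 imprinted domain, 1 passed the adjusted threshold, as did 0.235% of all tested genes. This was Cdkn1c, the cyclin-dependent kinase inhibitor p57, which fell from 49.5 ± 3.53 to 29.8 ± 3.45 CPM (log2 fold change -0.73, edgeR adjusted p = 0.0384). The adjusted p of Cdkn1c was above the threshold with the form of the source name as a covariate (0.0682), with limma-voom (0.0698), without the 2 hearts whose source names begin with a letter (0.112) and without control heart 1, 2, 3 or 4 or transferred heart 2 (0.0726 to 0.156). At an unadjusted p under 0.05 the list had 2 genes higher (7.17% of all tested genes were), Mrpl23 and the tetraspanin gene Tspan32 (1.93, edgeR adjusted p = 0.0764). The list's median log2 fold change was -0.02, with 7 genes above 0 and 8 below. Of 28 tested protein-coding genes of other imprinted regions none passed, with 3 higher and 2 lower at an unadjusted p under 0.05 (7.17% and 5.27% of all tested genes) and a median of 0.07.

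Gm16316, which overlaps the protein kinase inhibitor gene Pkig on the other strand, came second, and it is one of the lncRNAs that reached 5 CPM through the transferred hearts alone. It had 4.38, 3.57, 3.72 and 1.77 CPM in control hearts and 3.09, 11.6 and 7.51 CPM in transferred hearts. Transferred heart 1 lay within the control range while the other two exceeded it, and the log2 fold change was 1.13 ± 0.4219 (edgeR adjusted p = 0.315), or 0.65 without transferred heart 2. Pkig stood at 0.15. Gm46162 was another lncRNA whose difference came from that heart: it had 16.04 CPM there and 6.15 to 8.75 CPM in the other 6 hearts, and its log2 fold change went from 0.45 to -0.02 without it. Gm40124, 68706 bases from the sphingosine-1-phosphate receptor gene S1pr1, had 11.96, 7.27, 8.52 and 4.86 CPM against 7.95, 11.9 and 12.99 CPM (0.42), with overlap. It ran from 0.25 without control heart 4 to 0.67 without control heart 1.

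Variation among control hearts was greatest in Bc1, Gm36149 and H19, whose coefficients of variation there were 48.7%, 47.1% and 45.7%. Bc1 is a short cytoplasmic RNA of rodents, made by RNA polymerase III, best known from neurons, where it is associated with repression of translation. It carries an internal stretch of adenines, and its transcript is shown because RNA for these libraries had been selected by poly(A) (GENCODE vM21, chr7:144914470-144914637, plus strand). Capitals mark the longest run of A, 23 of the 168 bases, and 41.7% of the transcript is A.
Bc1: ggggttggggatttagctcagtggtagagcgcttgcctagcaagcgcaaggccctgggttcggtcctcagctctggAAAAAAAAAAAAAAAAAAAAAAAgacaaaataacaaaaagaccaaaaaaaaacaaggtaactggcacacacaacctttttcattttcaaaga

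Bc1 had 12.6, 57.2, 60.6 and 55.3 CPM in control hearts and 17.6, 39.7 and 35.1 CPM in transferred hearts. The low heart of each group was heart 1, and these are the 2 hearts whose source names begin with a letter rather than a number. The log2 fold change was -0.59 ± 0.565 (edgeR adjusted p = 0.741), and ran from -0.90 without control heart 1 to -0.31 without transferred heart 1. Without both of these hearts it was -0.62 ± 0.107 (edgeR adjusted p = 0.112), and with the form of the source name as a covariate it was -0.32 ± 0.195 (edgeR adjusted p = 0.552). What the letter in the source name stands for is not given in the sources used here. Gm36149, 33849 bases from the gene Mn1, was low in other hearts: 18.9, 22.9, 19.3 and 5.17 CPM in control and 17.1, 15.2 and 5.14 CPM in transferred hearts. Control heart 4 and transferred heart 3 were alike and far below the other 5, and the groups overlapped fully (log2 fold change -0.42 ± 0.55). It ran from -0.71 without transferred heart 1 to -0.05 without transferred heart 3.

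**Figure D4:**
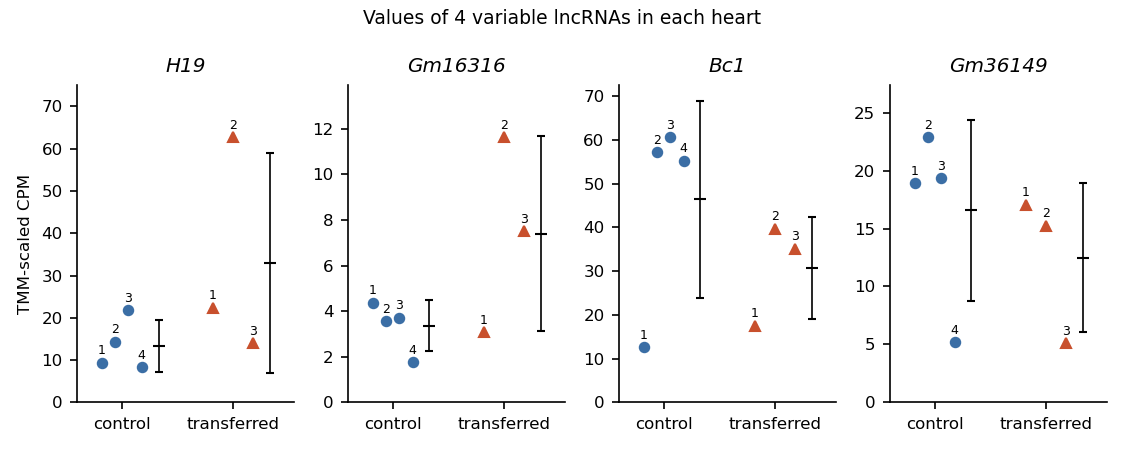
TMM-scaled CPM of H19, Gm16316, Bc1 and Gm36149 in each heart, numbered within its group, with the mean and SD of each group as a bar beside the points. Transferred heart 2 is highest for H19 and Gm16316, heart 1 of both groups is lowest for Bc1, and control heart 4 and transferred heart 3 are lowest for Gm36149.

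Scatter between hearts was wider for the lncRNAs than over all tested genes, and the gap was smaller at like levels in transferred hearts. The median coefficient of variation was 14.8% for the 110 and 11.1% for all tested genes in control hearts, and 14.8% and 12.5% in transferred hearts. Between 5 and 20 CPM it was 16.2% for lncRNAs and 12.95% for protein-coding genes in control hearts, and 15.8% and 14.8% in transferred hearts. Standard errors of the log2 fold changes had a median of 0.18 for the lncRNAs and 0.14 for all tested genes. Between 5 and 20 CPM the medians were 0.19 for lncRNAs and 0.17 for protein-coding genes. Gm20716, which overlaps Adnp and Dpm1 on the same strand, varied least: it had 123, 128, 126 and 125 CPM in control and 120, 119 and 130 CPM in transferred hearts. Its counts were fractional in 6 hearts. Gm20716 runs from the start of Adnp to the end of Dpm1. Adnp had 56.4, 70.3, 61.9 and 68.0 CPM in control and 59.3, 56.7 and 65.3 CPM in transferred hearts. Dpm1 had 69.0, 59.9, 65.1 and 59.0 CPM in control and 62.3, 64.3 and 67.7 CPM in transferred hearts. In every heart the values of Adnp and Dpm1 added up to slightly more than that of Gm20716. Reads of Gm20716 cannot be told apart from theirs, so its low variation cannot be assigned to a separate lncRNA.

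Among lncRNAs with a described role, Norad and Oip5os1 were abundant and near equal in the groups. Norad is known for its part in genome stability, and its gene lies on chr2:156388063-156392979. Norad had 593, 608, 518 and 563 CPM in control and 508, 528 and 543 CPM in transferred hearts. The groups overlapped through control heart 3, and the log2 fold change was -0.12 ± 0.0787 (edgeR adjusted p = 0.608).

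Oip5os1, also called Cyrano, is known for a site that pairs with miR-7 over most of its length and leads to the decay of that microRNA. The microRNA is shown with its seed in capitals (RefSeq, GRCm38.p6, Mir7-2, chr7:78888295-78888317). It is followed by the site, whose capitals mark the stretches complementary to the seed and to the other end of miR-7 (GENCODE vM21, chr2:119602136-119602161, plus strand).
mmu-miR-7a-5p: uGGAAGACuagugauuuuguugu
Oip5os1 site: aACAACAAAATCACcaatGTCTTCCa

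The site pairs with the seed over 7 bases and with the other end of miR-7 over 13. Seed matches alone, the motif GTCTTCC, were present in 38.6% of 44 noncoding GENCODE transcripts of 7000 to 10000 bases, whereas both stretches together were found in 1 of 30251 noncoding transcripts of any length, the one of Oip5os1. The site lies beyond the end of the Oip5os1 gene in the table, at 119600746, so reads there were not part of its count under that gene model. Oip5os1 had 235, 204, 237 and 193 CPM in control and 197, 218 and 228 CPM in transferred hearts. The groups overlapped fully, with a log2 fold change of -0.02 ± 0.0957, whose sign changed when single hearts were left out.

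Hosts of small nucleolar RNAs (snoRNAs, which guide chemical modification of ribosomal RNA) were a further class. Their introns release the snoRNAs, and the spliced remainder of several of them is translated briefly and removed by nonsense-mediated decay. A list of known hosts had 11 genes in the table, of which 9 were tested and 5 were among the 110. By annotation, 7 of the 110 hold a snoRNA, the other two being Gm34865 (log2 fold change -0.14) and AI506816 (0.08), named after their values were seen. None of the 9 on the list had an unadjusted p under 0.05, where 7.17% of all tested genes were higher and 5.27% lower. Of the 9, 7 were above 0 and 2 below, with a median log2 fold change of 0.09 (with upper-quartile scaling, 6 and 3). Gas5, whose gene holds 8 annotated snoRNAs, had 40.1, 34.9, 46.1 and 35.4 CPM in control and 36.4, 42.1 and 42.4 CPM in transferred hearts (0.04 ± 0.117). Zfas1 had 7.59, 4.78, 8.60 and 4.86 CPM against 5.32, 8.23 and 9.19 CPM (0.23 ± 0.267), Snhg8 stood at 0.15 and Snhg3 at -0.15. Without single hearts Zfas1 ran from 0.07 (transferred heart 3) to 0.43 (transferred heart 1), and Snhg8 from 0.04 (transferred heart 2) to 0.22 (control heart 1). Snhg3 ran from -0.28 without transferred heart 3 to 0.06 without transferred heart 1, so its direction turned. Snhg14, the long transcript across the Prader-Willi and Angelman region that runs antisense to Ube3a, had 61.5, 83.0, 63.6 and 76.2 CPM against 69.7, 79.0 and 64.6 CPM, a log2 fold change of 0.00 ± 0.12. Snrpn and Snurf, protein-coding genes that overlap it on the same strand, had nearly the same values. Those of Snrpn were 60.5, 82.8, 62.1 and 76.0 CPM against 69.4, 78.0 and 61.8 CPM. Each of these genes had fractional counts in 7 hearts, so reads of Snhg14 cannot be told apart from theirs. All 5 hosts among the 110 had fractional counts in at least 2 hearts, and how such reads were divided is not given in the sources used here.

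Several snoRNA hosts begin, like messenger RNAs of ribosomal proteins, with a C followed by a run of pyrimidines, the 5′ TOP sequence that ties translation to growth signals. Starts of the hosts are shown for that reason, with 10 bases before the start and 20 from it, and the first 8 transcribed bases in capitals (RefSeq, GRCm38.p6; Gas5 at 161034601 and 161035166 on chromosome 1, Snhg8 at 123508336 on chromosome 3, Snhg3 at 132353686 on chromosome 4, Zfas1 at 167062934 on chromosome 2).
Gas5 start 1: gcgggcccgcGAGCTCGAcagcccggagcc
Gas5 start 2: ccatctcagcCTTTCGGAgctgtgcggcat
Snhg8 start 1: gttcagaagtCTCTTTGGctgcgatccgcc
Snhg3 start 1: gaccacgcctGACTTCCGggcgttacttaa
Zfas1 start 1: tgcgccccggGCGGCCGCaggtctcggctg

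By the rule of a C and then 4 bases that are each C or T, the second Gas5 start and the Snhg8 start matched, as did 2.51% of 32851 RefSeq start sites. Protein-coding genes of the 5′ TOP class had values above 0 for 23 of 23 tested, with a median log2 fold change of 0.20; 10 had an unadjusted p under 0.05, where 7.17% of all tested genes were higher, and none passed the adjusted threshold (with upper-quartile scaling, 22 of 23 were above 0). They summed to 11658 to 12632 CPM in control hearts and to 15077, 14314 and 12033 CPM in transferred hearts 1, 2 and 3, the last within the control range. Rpl12, a ribosomal protein gene, had the smallest p of them, with 455 CPM in control and 579 CPM in transferred hearts (edgeR adjusted p = 0.229). Of 11 proteins that assemble or process snoRNAs, none had an unadjusted p under 0.05, and their median was -0.01 (0.00 with total count scaling, with 6 above 0 and 5 below). Of 15 factors of nonsense-mediated decay and the exosome, 1 had an unadjusted p under 0.05, the exosome nuclease gene Exosc10 (0.21, edgeR adjusted p = 0.337). Of 13 nuclear partners and processing factors of lncRNAs none did. Over all tested genes, 7.17% were higher and 5.27% lower at that p.

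Position relative to protein-coding genes divided the 110 further. Each was put in the first class that fitted. Of them, 42 overlapped a protein-coding gene on the other strand, 9 overlapped one on the same strand only, 12 started within 1 kb of a gene transcribed the other way without overlapping it, 13 lay within 10 kb otherwise and 34 lay further off. Some of the 42 also start within 1 kb of the start of the opposite gene. Among these, Gas5, Zfas1, 2810025M15Rik and Gm9899 were above 0, and A930005H10Rik, Gm42274 and 2610306M01Rik were lower without overlap between the groups. Of the 12 divergent lncRNAs, 10 were below 0 and 2 above (9 and 3 with total count scaling), with a median log2 fold change of -0.15. The 9 that overlap a gene on the same strand only had a median of -0.14, with 7 below 0 and 2 above. Snhg14 (0.00) and Gm28042 (-0.11) overlap genes on both strands and were counted with the 42. The protein-coding partners of the 12 divergent lncRNAs ran from -0.04 to 0.18, with a median of 0.03. The 34 remote lncRNAs divided evenly, with 18 above 0, 16 below and a median of 0.04. Of the 42 on the other strand, 7 were lower and 1 higher without overlap, where 5.22% and 5.99% of all tested genes were, with a median of -0.04. The differences between these classes were not tested.

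In 3 of the 12 divergent pairs the lncRNA was lower without overlap between the groups while its partner was not. Of all tested genes, 5.22% were lower in that way. 4632404H12Rik had 10.6, 12.3, 11.4 and 10.6 CPM in control and 8.76, 8.61 and 10.1 CPM in transferred hearts (log2 fold change -0.29 ± 0.134, edgeR adjusted p = 0.411). Its partner, the ubiquitin-conjugating enzyme gene Ube2q1, had 69.5, 66.8, 75.7 and 68.1 CPM against 66.8, 78.6 and 70.0 CPM (0.04). 4921531C22Rik had 15.3, 11.1, 10.9 and 11.1 CPM against 8.66, 7.62 and 9.98 CPM (-0.47 ± 0.171, edgeR adjusted p = 0.301), beside 0.03 for Taf4, a subunit of the general transcription factor TFIID. 2810414N06Rik had 9.48, 7.49, 7.64 and 7.26 CPM against 5.07, 6.82 and 5.09 CPM (-0.49 ± 0.18), beside -0.03 for Edem3, a gene of the degradation of misfolded glycoproteins.

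The stretches between the start sites of the first and the second pair are shown because both transcripts of a pair start from them. Capitals mark CG (RefSeq, GRCm38.p6, chr3:89773401-89773608 on the minus strand and chr2:179976647-179976852 on the plus strand). Each is read from the protein-coding gene towards the lncRNA, although its label names the lncRNA first.
4632404H12Rik to Ube2q1: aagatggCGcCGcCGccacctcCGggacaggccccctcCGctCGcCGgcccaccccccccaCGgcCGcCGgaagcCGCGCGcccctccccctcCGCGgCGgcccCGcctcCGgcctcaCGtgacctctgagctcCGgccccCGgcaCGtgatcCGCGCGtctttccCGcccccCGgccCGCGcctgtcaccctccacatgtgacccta
4921531C22Rik to Taf4: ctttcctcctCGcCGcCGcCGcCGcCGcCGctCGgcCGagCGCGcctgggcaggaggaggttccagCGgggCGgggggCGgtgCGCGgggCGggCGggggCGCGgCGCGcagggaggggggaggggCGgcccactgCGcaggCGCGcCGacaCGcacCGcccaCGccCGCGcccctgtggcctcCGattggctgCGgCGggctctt

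They hold 29 CG in 208 bases and 35 CG in 206 bases, where the median over all RefSeq promoters is 5 CG in the 210 bases before the start. A search of the 96 lncRNAs with a RefSeq promoter for the core of the interferon-stimulated response element (GAAANNGAAA on either strand, 250 bases before to 50 after the start) found it in 5, or 5.21%, against 3.99% of 27025 genes. These were 9330158H04Rik, Gm12519, Gm20716, Gm5563 and Gm5860. Gm12519 was higher without overlap and the other 4 overlapped between the groups.

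The 14 lower lncRNAs had 15 protein-coding partners, all with overlapping groups and none with an unadjusted p under 0.05. Of all tested genes, 5.99% were higher and 5.22% lower without overlap, and 7.17% were higher and 5.27% lower at that p. Partners below 0 included Zfp970 at -0.40, beside Gm14403 and with fractional counts in 6 hearts, and Ccdc17 at -0.38, opposite C530005A16Rik. The log2 fold changes of the 15 ran from -0.40 to 0.20 with a median of -0.03. Over all lncRNAs and their overlapping or nearest tested protein-coding gene within 100 kb, the fold changes of 113 pairs had a Pearson r of 0.20, a description without a test, since both come from the same hearts. Pairs that overlap on the same strand, those of Snhg14 and Gm28042 included, had 0.62 over 13 pairs. Divergent pairs had 0.49 over 12 pairs and overlapping pairs on opposite strands 0.14 over 45 pairs. Overlapping genes can share reads, and the part of shared reads in these values was not tested.

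**Figure D5:**
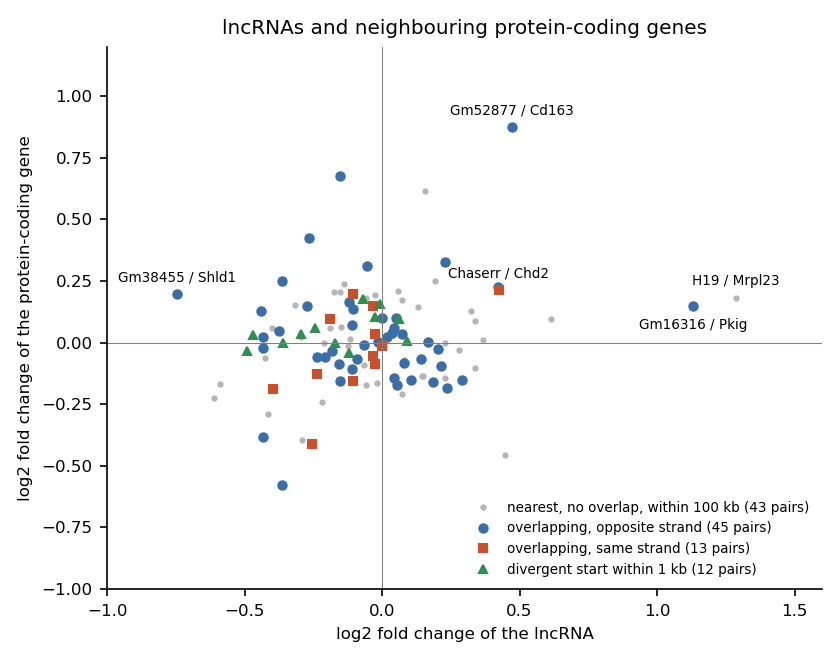
Log2 fold change (transferred / control) of each lncRNA against that of its overlapping, divergent or nearest protein-coding gene within 100 kb. The 15 partners of the 14 lower lncRNAs lie between -0.40 and 0.20, and Cd163 at 0.88, opposite Gm52877, is the highest partner.

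Some lncRNAs with an unadjusted p under 0.05 in the higher direction lay at such shared loci. Chaserr, which is known to lower the output of the chromatin remodeller gene Chd2 downstream of it, had 18.2, 17.9, 21.6 and 15.3 CPM in control and 19.2, 26.0 and 28.5 CPM in transferred hearts. Transferred heart 1 was within the control range, and the log2 fold change was 0.42 ± 0.158 (edgeR adjusted p = 0.31). Chd2, whose gene overlaps Chaserr on the same strand, was at 0.21, and Chaserr had fractional counts in 5 hearts. Sp3os, opposite the transcription factor gene Sp3, had 10.1, 7.66, 10.2 and 7.57 CPM against 9.78, 13.3 and 12.6 CPM (0.42), and Sp3 was at 0.23.

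Gm52877 lies opposite Cd163, the haemoglobin scavenger receptor of resident macrophages. It had 4.57, 5.12, 4.57 and 4.29 CPM in control and 4.91, 8.51 and 5.88 CPM in transferred hearts (log2 fold change 0.47 ± 0.211, edgeR adjusted p = 0.401). Transferred heart 1 lay below control heart 2, and the log2 fold change was 0.22 without transferred heart 2. Cd163 had 24.8, 25.7, 18.7 and 37.0 CPM against 49.1, 62.7 and 33.6 CPM (0.88 ± 0.254, edgeR adjusted p = 0.211), and both genes were highest in transferred heart 2. All 13 macrophage and monocyte markers tested were above 0 and had an unadjusted p under 0.05 (7.17% of all tested genes were higher at that p), and 2 of them, Mrc1 and C1qb, passed the adjusted threshold, as did 0.235% of all tested genes (0.77 and 0.98, edgeR adjusted p = 0.0384). Both lost the call with the form of the source name as a covariate (0.0727), with limma-voom (0.0703), without the 2 hearts with a letter (0.128 and 0.135) and without any 1 of the control hearts, transferred heart 1 or transferred heart 2 (0.0606 to 0.157).

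The rest of the lncRNAs at an unadjusted p under 0.05 gave small differences. Gm35546, 8277 bases from the growth factor gene Tgfb2, had 26.3, 21.8, 31.8 and 22.5 CPM in control and 36.3, 29.8 and 31.0 CPM in transferred hearts (0.34), and Tgfb2 was at -0.10. LOC115489886 had 10.5, 11.6, 12.2 and 12.2 CPM against 11.9, 15.7 and 16.1 CPM (0.32). 2310040G24Rik had 21.9, 18.2, 22.9 and 17.6 CPM against 14.1, 15.99 and 18.4 CPM (-0.32) and overlapped between the groups. The abundant C130080G10Rik had 490, 635, 627 and 587 CPM against 655, 497 and 534 CPM (-0.06 ± 0.12). Its neighbour Actc1, cardiac actin, was highest in transferred heart 1 too, at 46390 CPM against 31225 to 45894 CPM in control hearts (log2 fold change -0.17). Gm5532, Gm15543, 5930403L14Rik and 2810025M15Rik, the remaining lncRNAs of the 10 most abundant, had log2 fold changes from -0.21 to 0.05 and overlapping groups. Without single hearts they ran from -0.29 to -0.14, -0.22 to -0.05, -0.32 to -0.09 and 0.01 to 0.10, in that order.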

How the data were processed

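Polyadenylated RNA of 7 hearts was sequenced with paired-end reads of 75 nt, per the labels. The authors deposited a table of estimated counts per gene; 4.63% of the values are fractional, and they were rounded. The submitters' processing notes name bcl2fastq 2.20.0.422, cutadapt 2.5, STAR 2.7.2b, featureCounts 1.6.4, DESeq2 1.22.2 and GRCm38.p6, without their roles. The table analysed ended on chromosome 8 at a gene starting at 25129815, and 1 unfinished row was left out. The rest of the genome is not analysed here. Groups came from the labelled treatment. Heart numbers follow accession order and pair nothing.

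The edgeR 4.0.16 quasi-likelihood test (R 4.3.3, filterByExpr, TMM scaling, robust estimation) was fitted over all 7667 genes left by the filter, with Benjamini-Hochberg adjustment and a threshold of 0.05; CPM are TMM-scaled, except the means that define and rank the lncRNAs. The procedure was tested on simulated data. DESeq2 1.42.0, limma-voom (limma 3.58.1), other scalings, filters and member rules, and fits without single hearts were alternatives. The lncRNAs and gene lists were chosen with earlier results of these data known. Named by rule were the 10 most abundant lncRNAs, the 8 highest and 8 lowest log2 fold changes, the 8 smallest p, list members, the 3 on each side of 5 CPM and the 3 most variable in control hearts. Another 9 lncRNAs, the listed response-element matches, Actc1 and neighbours were named after their values were seen. A fold change of low counts is shrunk slightly by edgeR's prior count, and intervals cover the spread between hearts only.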

Additional observations from a re-analysis of the deposited data

Results flagged for a closer look

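Among the 45 named lncRNAs, 3 had a control heart far from the other 3 by a gap test on 4 values. A flat chance rate would give about 2.25 in 45. That rate does not strictly apply here, since some of the 45 were named for their control spread or fold change, and all share the same hearts. All 3 were control heart 1. Gm14403 had 365 CPM there and 251 to 261 CPM in the other control hearts. Bc1 had 12.6 CPM there and 55.3 to 60.6 CPM in the others. 4921531C22Rik had 15.3 CPM there and 10.9 to 11.1 CPM in the others. Control heart 1 is one of the 2 hearts whose source names begin with a letter. Groups of 3 hearts were not examined in this way.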

How the results depend on the processing

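No lncRNA of the 110 passed an adjusted p of 0.05 under any alternative run, and the lowest adjusted p was 0.0631. LncRNAs higher at an unadjusted p under 0.05 numbered 3 with total count scaling and 4 with limma-voom, against 7 (7.37% and 6.70% of all tested genes, against 7.17%). Lower ones numbered 17 among lncRNAs of at least 2 CPM (7.20%) and 4 among those of at least 10 CPM (6.35%), against 10 (9.09%) and 5.27% of all tested genes. Without overlap there were 39 in all, 19 of them higher, without the 2 letter-prefix hearts, where 15.8% of all tested genes separated upwards and 15.5% downwards; 28 in all and 24 lower (10.2%) at 2 CPM, and 10 and 8 (12.7%) at 10 CPM. Both thresholds change the number of lncRNAs, to 236 and 63. Leaving out single hearts gave 1 to 8 higher and 6 to 12 lower at an unadjusted p under 0.05, and 19 to 31 without overlap, of them 3 to 14 higher. In the same fits 5.16% to 8.28% of all tested genes were higher and 3.502% to 6.62% lower at that p, and 6.99% to 11.98% were higher and 6.57% to 11.90% lower without overlap. The count of all tested genes past the adjusted threshold was 18 and ran from 0 (limma-voom, the prefix as a covariate, and without the prefix hearts, control heart 1, 2 or 4 or transferred heart 2) to 252 (DESeq2); 3 macrophage markers passed with RLE and 5 with total count scaling, against 2.

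Of 810 alternative log2 fold changes of the 45 named lncRNAs, 783 kept their sign and 27 did not; 36 lncRNAs never changed sign. Without the 2 letter-prefix hearts the sign changed for 2810025M15Rik (-0.012), Snhg14 (-0.041), Oip5os1 (0.086), Snhg3 (0.0073) and Gm13481 (0.146). Snhg14 was -0.0056 with upper-quartile scaling and -0.000291 with all genes of at least 1 count. Gm13481 was 0.0013 with RLE scaling, 0.017 with total count scaling and 0.0013 with the prefix as a covariate. Without single hearts the ranges that crossed 0 were -0.081 to 0.085 (Snhg14), -0.072 to 0.039 (Oip5os1), -0.18 to 0.025 (C130080G10Rik), -0.022 to 0.63 (Gm46162), -0.0084 to 0.13 (Gas5), -0.28 to 0.064 (Snhg3), -0.088 to 0.12 (Gm13481) and -0.050 to 0.11 (R74862). In all, 24 of the 45 moved by over 1.5 times or changed sign without 1 heart. The cause was not tested. Splits of the counts by direction and unrounded counts were alternatives chosen after seeing the data. No paired analysis was possible because the labels' heart numbers share only 1 number between the groups, and the replicate numbers follow accession order.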
